A study of Mus musculus with 47 samples.

Results

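Pou5f1, Sox2, Sall4, Lin28a and Utf1 are genes that mouse embryonic stem (ES) cells keep active across the states of pluripotency. Every probe whose annotated gene symbol was one of these 5 names was taken, which gave 10 probes among the 25697 on the array, and 5 of the 16593 genes that had a probe. Pou5f1, Sox2 and Lin28a had 2 probes each, Sall4 had 3 and Utf1 had 1. Each gene is described by its brightest probe, the one with the highest mean intensity over all 47 arrays, and the other probes are given beside it. An intensity is the deposited brightness of a probe after background subtraction, on a linear scale. For a probe it can be compared between arrays that were normalised together, but not between probes.

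Cells of 4 lines in N2B27 medium were profiled on Illumina arrays, with 3 arrays for each of 13 groups. The KO line was Tcf7l1-/-, the 3XKO line was Tcf7-/- Tcf7l2-/- Lef1-/-, the 4XKO line lacked all 4 of these TCF/LEF factors, and WT was the unmodified line. In WT cells ContinuedCH was 12 ng/mL Fgf2 together with 3 uM CHIR99021, an inhibitor of the kinase Gsk3. All lines were grown as EpiLC+CH (12 ng/mL Fgf2 for 3 days, then 3 uM CHIR99021 added for 24 hours), as EpiLC (12 ng/mL Fgf2) and as ESC (1 uM PD0325901, a MEK inhibitor, with 3 uM CHIR99021 and 1000 U/mL LIF), so the ESC medium also held CHIR99021. The labels give no days in Fgf2 for EpiLC or ContinuedCH, so added CHIR99021 and any added time in culture cannot be told apart. Each genotype was 1 line with no clone named, so a lost factor and any other difference between lines cannot be told apart, and p-values measure the spread between arrays that the labels call biological triplicates. A second set of 8 WT arrays, normalised apart, held LIF+PD+24hrCH (3 arrays), LIF+CHIR (1 array), PD+CHIR (1 array) and LIF+PD (3 arrays). The growth notes give LIF+PD+24hrCH as 24 hours of 1000 U/mL LIF with 1 uM PD0325901 and then 48 hours of 3 uM CHIR99021, which does not match the 24 hours in its name.

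Pou5f1 encodes Oct4, a POU-domain transcription factor, and Sox2 encodes its HMG-box partner. The pair bind joined octamer and SOX elements near many genes of pluripotent cells. Sall4 is a zinc finger factor that binds Oct4 and the NuRD chromatin complex, Utf1 is a chromatin-bound protein whose gene is an Oct4-Sox2 target, and Lin28a is an RNA-binding protein that blocks maturation of the let-7 microRNAs. ES cells in the ESC medium resemble the naive epiblast of the blastocyst, while Fgf2 moves them towards the later, formative epiblast. TCF/LEF proteins are the DNA-binding partners of beta-catenin, and Tcf7l1 acts mainly as a repressor in ES cells. The series title asks how Tcf7l1 links the naive gene network with the answer to Gsk3 inhibition.

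The promoter windows of 4 of the 5 genes are shown because the TCF/LEF factors, Oct4 and Sox2 all bind DNA and the expression of these genes differed between the TCF/LEF lines. Each holds 300 bases, from 250 before to 50 after an annotated start, 5′ to 3′ on the gene's strand, from RefSeq on GRCm38.p6. Pou5f1 had 2 windows, of which the one at the gene's annotated start is given. Capitals mark TCF/LEF letters (CTTTGA or CTTTGT), the octamer (ATGCAAA) and SOX letters (CATTGT), each searched on both strands.
Pou5f1 promoter window, chr17:35505782-35506081, plus strand: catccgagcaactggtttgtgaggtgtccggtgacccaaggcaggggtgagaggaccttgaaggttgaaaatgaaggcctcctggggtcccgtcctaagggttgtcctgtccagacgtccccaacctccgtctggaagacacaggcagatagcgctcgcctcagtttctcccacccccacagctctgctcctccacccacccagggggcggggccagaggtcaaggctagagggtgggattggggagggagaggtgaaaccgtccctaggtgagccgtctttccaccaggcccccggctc
Sox2 promoter window, chr3:34649745-34650044, plus strand: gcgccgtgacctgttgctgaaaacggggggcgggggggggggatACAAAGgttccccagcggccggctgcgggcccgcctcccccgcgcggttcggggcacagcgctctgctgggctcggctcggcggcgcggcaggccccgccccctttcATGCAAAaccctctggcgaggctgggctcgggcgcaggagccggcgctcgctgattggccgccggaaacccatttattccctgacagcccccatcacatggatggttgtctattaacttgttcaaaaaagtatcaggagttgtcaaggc
Lin28a promoter window, chr4:134018767-134019066, minus strand: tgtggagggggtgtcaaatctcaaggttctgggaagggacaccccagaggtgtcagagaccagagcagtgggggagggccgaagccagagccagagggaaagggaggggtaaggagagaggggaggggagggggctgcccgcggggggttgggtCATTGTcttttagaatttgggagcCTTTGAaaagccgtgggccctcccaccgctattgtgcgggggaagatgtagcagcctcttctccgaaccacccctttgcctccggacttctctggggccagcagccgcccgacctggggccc
Utf1 promoter window, chr7:139943606-139943905, plus strand: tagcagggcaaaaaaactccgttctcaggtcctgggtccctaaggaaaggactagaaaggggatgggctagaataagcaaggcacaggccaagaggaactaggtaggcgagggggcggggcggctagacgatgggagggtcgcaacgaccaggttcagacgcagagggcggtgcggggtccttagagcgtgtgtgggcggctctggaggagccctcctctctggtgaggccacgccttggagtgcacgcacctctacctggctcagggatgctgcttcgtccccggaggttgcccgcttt

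Sox2 held the TCF/LEF letters, read as ACAAAG on this strand from 206 bases before the start, and the octamer from 99 bases before it. Lin28a held SOX letters from 96 bases and TCF/LEF letters from 72 bases before the start used for its window. On its minus strand the Lin28a gene record begins further upstream, at 134019196, so by that record the whole window lies inside the gene. None of the searched letters occurred in the windows of Pou5f1 and Utf1. No marked stretch overlapped another. Of all 32851 promoter windows of this length, 31.2% held TCF/LEF letters, 4.63% the octamer and 12.6% the SOX letters, and a match describes the letters only.

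The brightest probe of each member lay above the background limit (13.6 in the larger set, 14.3 in the smaller) on all 47 arrays. The Tcf7l1 probe averaged 193.9 to 835.7 in the groups of the KO and 4XKO lines, against 1499 to 2103 in the groups of the 3XKO and WT lines, so it was lower but not at background in the knockouts. The labels do not place the probe relative to the deletion. Tcf7l2 averaged 25.7 to 78.7 in the 3XKO and 4XKO lines, against 29.4 to 88.9 in the KO and WT lines, and is no check of the label. Lef1 averaged 27.6 ± 4.57 in 3XKO EpiLC and 6.33 ± 2.34 in 4XKO EpiLC, but also 7.47 ± 0.32 in KO EpiLC, whose label leaves Lef1 intact, against 68.6 ± 5.11 in WT EpiLC (SD, n = 3 each). It was below background in WT ESC and is no check of the label either. Tcf7 had no named probe. By correlation over all probes, 27 of the 39 arrays had their nearest array within their group, and the nearest array of all 6 KO and 4XKO EpiLC+CH arrays was an EpiLC array of the same line. The other 6 lay nearest to another line: 4XKO EpiLC arrays 1 and 3 and WT ContinuedCH array 2 to KO EpiLC, KO ESC array 1 and 4XKO ESC array 3 to WT ESC, and WT ESC array 1 to 4XKO ESC. KO EpiLC arrays 2 and 3 were the closest pair (r = 0.985 over all probes).

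Across the 13 groups Sall4 and Pou5f1 stayed within a 2.04-fold and a 1.99-fold span of group means, while Utf1 spanned 5.47-fold, Sox2 6.24-fold and Lin28a 17.1-fold. Pou5f1 and Sox2 were highest in WT ESC, at 2939 ± 165 and 283.3 ± 33.2. Their lowest groups differed: 3XKO EpiLC+CH for Pou5f1 (1475 ± 271) and WT EpiLC for Sox2 (45.4 ± 6.92). Sall4 was highest in 3XKO EpiLC (4245 ± 774) and lowest in KO EpiLC+CH (2077 ± 35.8). Lin28a and Utf1 had their high end in WT cells in Fgf2, in EpiLC+CH for Lin28a (433.9 ± 11.0) and in EpiLC for Utf1 (1276 ± 89.6), and their low end in ESC medium, in the 3XKO line for Lin28a (25.4 ± 1.81) and in the KO line for Utf1 (233.4 ± 8.39). Errors are SD over 3 arrays.

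When the 13 groups of a gene were placed in order of their mean, most neighbouring groups overlapped. Steps without overlap were not counted over all probes, so the numbers given here describe each gene only and are not read as high or low. For Pou5f1, arrays of neighbours were apart at 1 of 12 steps, below KO ESC (2537 to 2845) and above 3XKO ESC (2264 to 2351). Sall4 also had 1 such step, at the bottom, between KO ESC and KO EpiLC+CH. Sox2 had 3: between WT ESC and KO ESC, between KO ESC and 3XKO ESC, and between 3XKO EpiLC (62.6 to 95.9) and WT EpiLC (40.1 to 53.2). The groups of Utf1 were apart at 5 steps and those of Lin28a at 6. For Lin28a these separated every ESC group from the next, in the order KO (73.1 ± 7.06), 4XKO (54.9 ± 5.13), WT (39.2 ± 9.45) and 3XKO (25.4 ± 1.81).

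**Figure D1:**
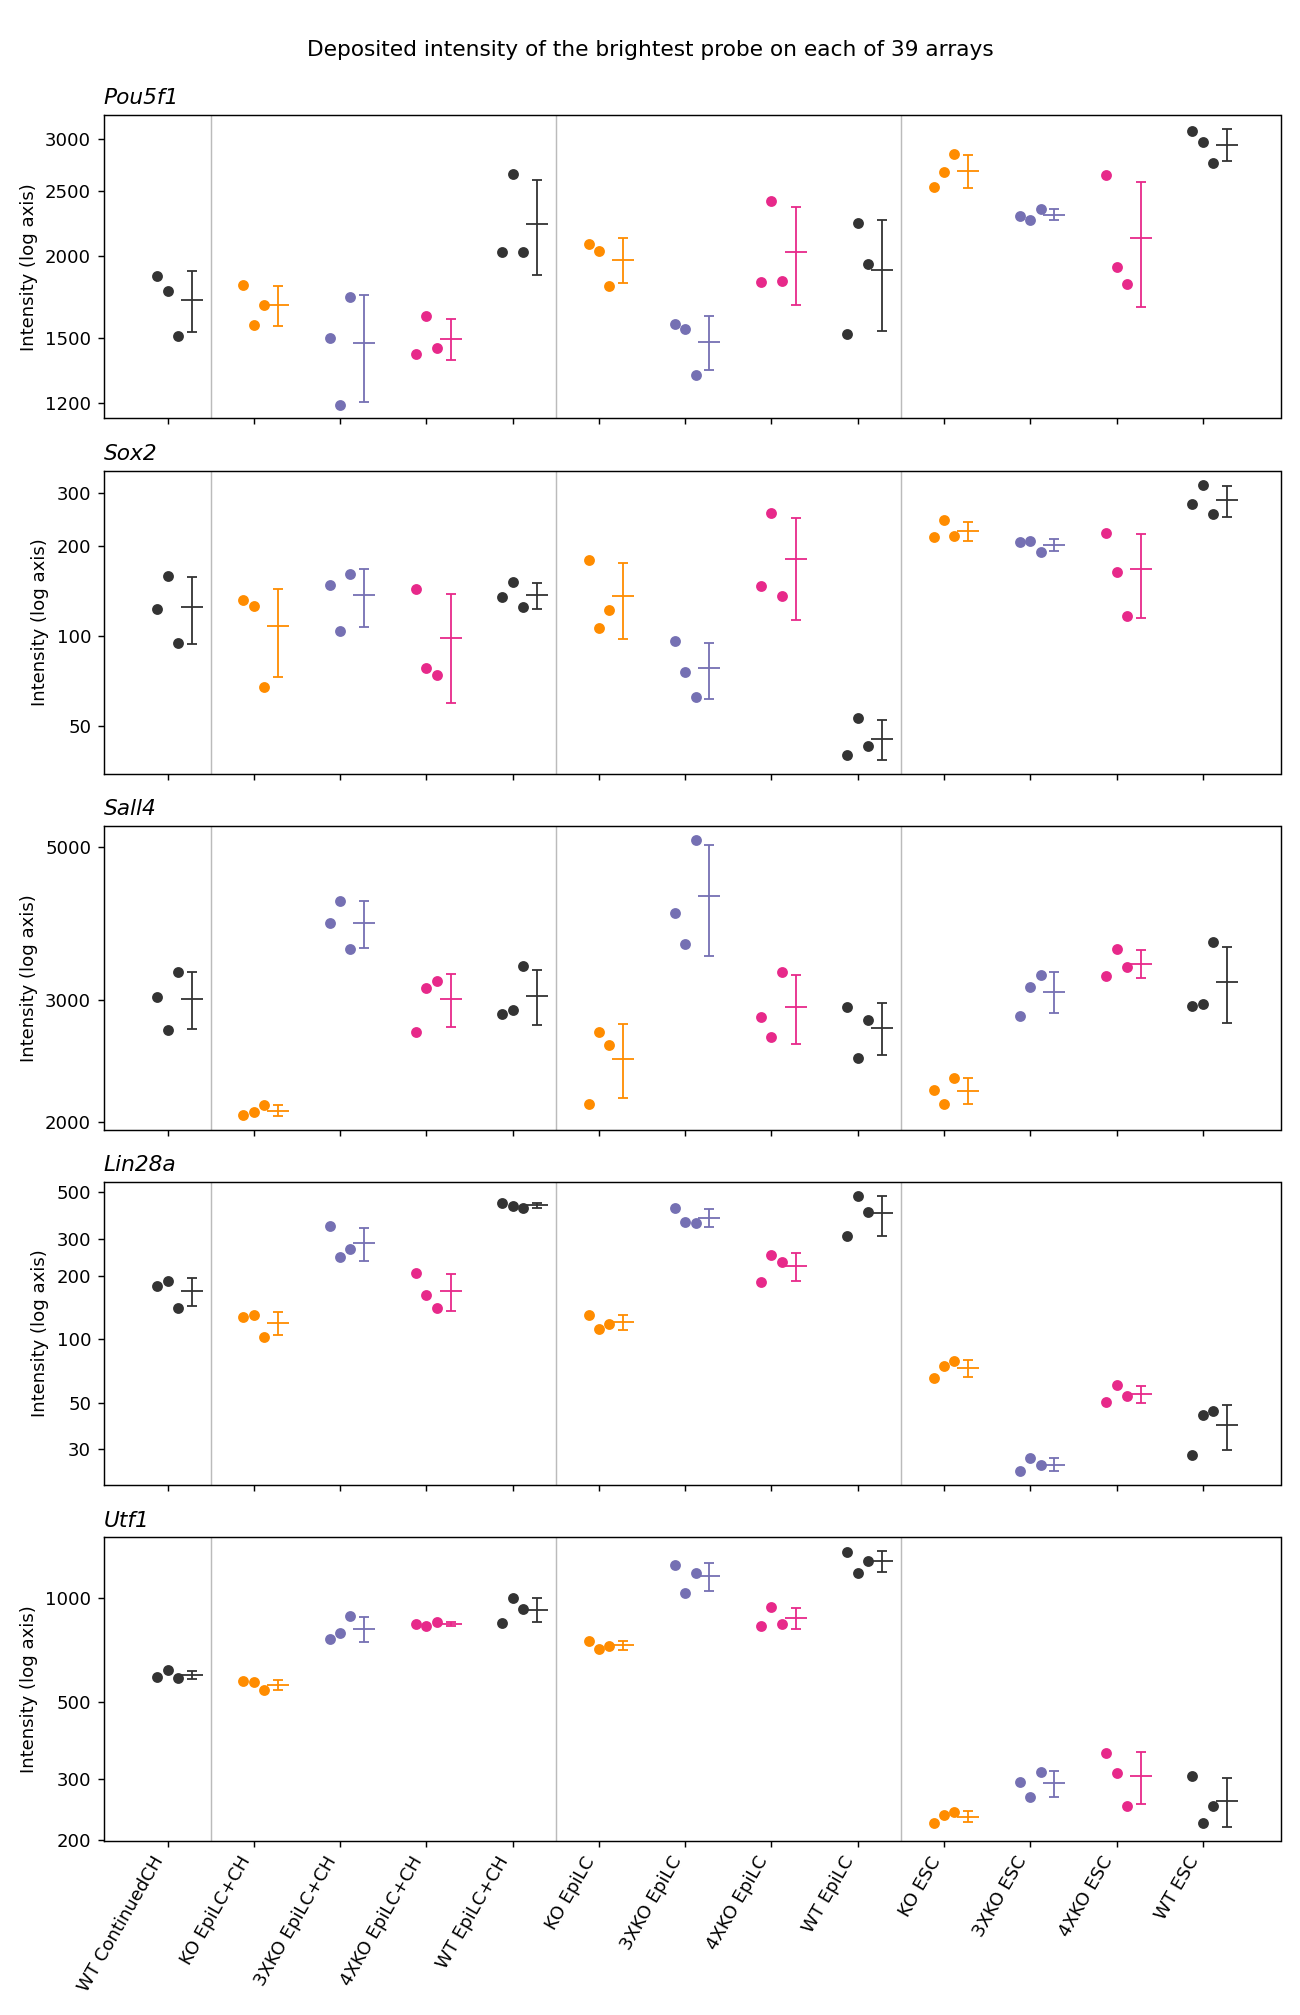
Deposited intensity (log axis) of the brightest probe of each gene on the 39 arrays of the larger set, 1 point per array, with the mean and SD of the 3 arrays to the right of each group and colour by line. Lin28a and Utf1 sit low in all 4 ESC groups, while WT EpiLC is the lowest group for Sox2.

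In WT cells the EpiLC state had less Sox2 and Pou5f1 and more Lin28a and Utf1 than the ESC state, and Sall4 did not pass the test. Sox2 read 40.1, 53.2 and 42.8 in WT EpiLC, against 275.0, 319.9 and 255.1 in WT ESC. Lin28a read 309.1, 479.7 and 401.6 in WT EpiLC, against 28.3, 43.7 and 45.5 in WT ESC. The arrays of the 2 states were far apart for both genes, in opposite directions. Sox2 fell by 2.65 ± 0.28 on the log2 scale (6.26-fold, limma adjusted p = 9.56e-09) and Lin28a was higher by 3.35 ± 0.18 (10.2-fold, adjusted p = 2.45e-15). Here and below, differences are of normalised log2 intensities ± SE, and a gene is called when its limma p, adjusted by Benjamini-Hochberg over all 25697 probes, is under 0.05. RNA was measured in bulk, so fewer cells of a type and less RNA per cell cannot be told apart.

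Utf1 read 1363, 1184 and 1283 in WT EpiLC, against 305.2, 223.7 and 249.9 in WT ESC, a difference of 2.31 ± 0.11 (4.95-fold, limma adjusted p = 1.13e-16). Pou5f1 fell by 0.65 ± 0.15 (1.56-fold, limma adjusted p = 0.00101), with 1521, 2238 and 1939 in WT EpiLC, against 3085, 2971 and 2760 in WT ESC. The groups did not overlap for either gene. Sall4 averaged 2737 ± 238 in WT EpiLC and 3181 ± 399 in WT ESC (SD, n = 3 each), and its arrays did not overlap (2470 to 2929, against 2944 to 3641), but the difference of -0.21 ± 0.12 was not called (limma adjusted p = 0.201). Thus 4 of the 5 genes were called in WT, 2 in each direction, where 30.0% of all probes were called.

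All lines shared the rise of Lin28a and Utf1, and the fall of Sox2 was called in WT and 3XKO. In 3XKO all 5 genes were called, against 27.8% of all probes: Lin28a was higher by 3.90 ± 0.18, Utf1 by 1.99 ± 0.11 and Sall4 by 0.45 ± 0.12, while Sox2 fell by 1.38 ± 0.28 and Pou5f1 fell by 0.64 ± 0.15 in EpiLC. The Sall4 call was lost without 3XKO EpiLC array 3 (0.31, adjusted p = 0.0571), and its second probe gave 0.16 (adjusted p = 0.651). In KO 3 genes were called, against 20.4% of all probes: Utf1 (1.65 ± 0.11), Lin28a (0.72 ± 0.18) and Pou5f1 (-0.45 ± 0.15, limma adjusted p = 0.033). The Pou5f1 call in KO did not hold when KO EpiLC arrays 2 and 3 were averaged as 1 sample (adjusted p = 0.0919), nor without KO ESC array 2 or 3 or KO EpiLC array 2 or 3 (adjusted p of 0.0579 to 0.141). In 4XKO only Lin28a (2.02 ± 0.18) and Utf1 (1.52 ± 0.11) were called, against 20.9% of all probes.

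Sox2 was not called in either line without Tcf7l1. It read 147.2, 256.8 and 135.5 in 4XKO EpiLC, against 219.7, 163.0 and 116.9 in 4XKO ESC, and it read 179.7, 106.1 and 122.2 in KO EpiLC, against 213.8, 243.1 and 215.4 in KO ESC. The 4XKO groups overlapped and differed by 0.10 ± 0.28 (limma adjusted p = 0.987). The KO groups did not overlap, but the difference of -0.75 ± 0.28 was not called (limma adjusted p = 0.0629). It was called under 4 other settings, with the dimmest 33.3% of probes left out (adjusted p = 0.0425), with a trended and robust prior (0.0303), with the replicate number as a block (0.0312) and without KO EpiLC array 1 (0.0252).

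The change of medium differed from WT in 8 of 15 tests of the difference itself, (EpiLC minus ESC) in a mutant minus the same in WT. The Sox2 difference from WT was 2.74 ± 0.40 in 4XKO, 1.89 ± 0.40 in KO and 1.26 ± 0.40 in 3XKO (limma adjusted p = 7.85e-06, 0.0009 and 0.0418). The call for 3XKO was lost in 10 of the 12 fits that left out 1 array of the groups compared (adjusted p up to 0.113). Lin28a rose less than in WT by 2.63 ± 0.25 in KO and by 1.33 ± 0.25 in 4XKO on the log2 scale, and Utf1 by 0.66 ± 0.15 and 0.79 ± 0.15. In 3XKO the differences of Lin28a (0.55 ± 0.25) and Utf1 (-0.32 ± 0.15) were not called, though that of Lin28a was without WT ESC array 1 (0.77, adjusted p = 0.0395). The Sall4 difference from WT was 0.66 ± 0.17 in 3XKO (limma adjusted p = 0.00779). Sall4 was higher in EpiLC than in ESC in 3XKO, while in WT it went the other way without being called. The second Sall4 probe gave 0.31 for this difference (adjusted p = 0.563). By the brightest probe the call was lost when only these groups set the spread (adjusted p = 0.0791). Of all probes, 16.5% were called in the test of the difference from WT for KO, 10.6% for 3XKO and 14.4% for 4XKO. The Pou5f1 difference in 4XKO (0.58 ± 0.21, adjusted p = 0.0682) was called by its other probe (0.51, adjusted p = 0.0153), and without 4XKO ESC array 1 (0.75, adjusted p = 0.013) or WT EpiLC array 2 (0.71, adjusted p = 0.0262). A trended and robust prior called it too (adjusted p = 0.0291), as did leaving out the dimmest 33.3% of probes (0.0473).

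**Figure D2:**
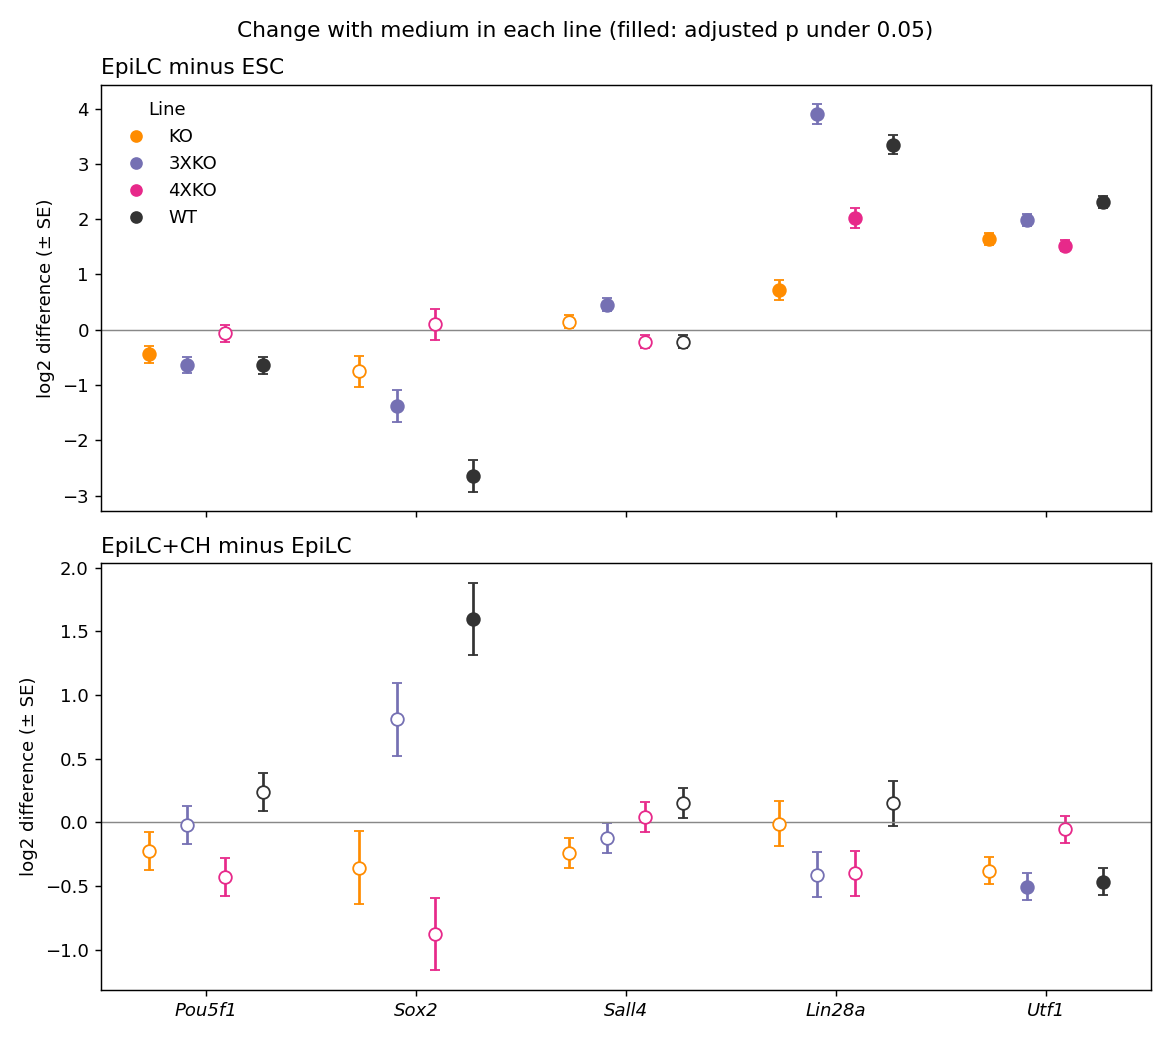
Difference of normalised log2 intensity between media (± SE) for the brightest probe of each gene in the KO, 3XKO, 4XKO and WT lines, with EpiLC minus ESC above and EpiLC+CH minus EpiLC below; filled points have an adjusted p under 0.05. For Sox2 the WT point lies at -2.65 above and at 1.60 below, and the 4XKO points are open in both panels.

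Calls by the other probes of a gene differed in part from those by the brightest. Over the 13 group means of log2 intensity the probes of a gene correlated at 0.98 for Pou5f1, 0.98 for Lin28a and 0.44 for Sox2, and the brightest Sall4 probe at 0.83 and 0.60 with the other 2. The second Sox2 probe was dimmer (23.7 to 113.1 on the 39 arrays). It read 30.8, 27.3 and 33.8 in WT EpiLC, against 39.4, 66.1 and 65.4 in WT ESC, and its difference of -0.86 was not called (limma adjusted p = 0.118). WT EpiLC was the lowest group on both Sox2 probes. By the second probe none of the 3 differences of the Sox2 transition was called (1.34 in KO, 0.79 in 4XKO and -0.09 in 3XKO, adjusted p of 0.123, 0.473 and 1), so each Sox2 result in the mutants rests on 1 probe unless stated otherwise. The third Sall4 probe was above background on 9 of 47 arrays, and the 2 other Sall4 probes are annotated to a different transcript record from the brightest.

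**Figure D3:**
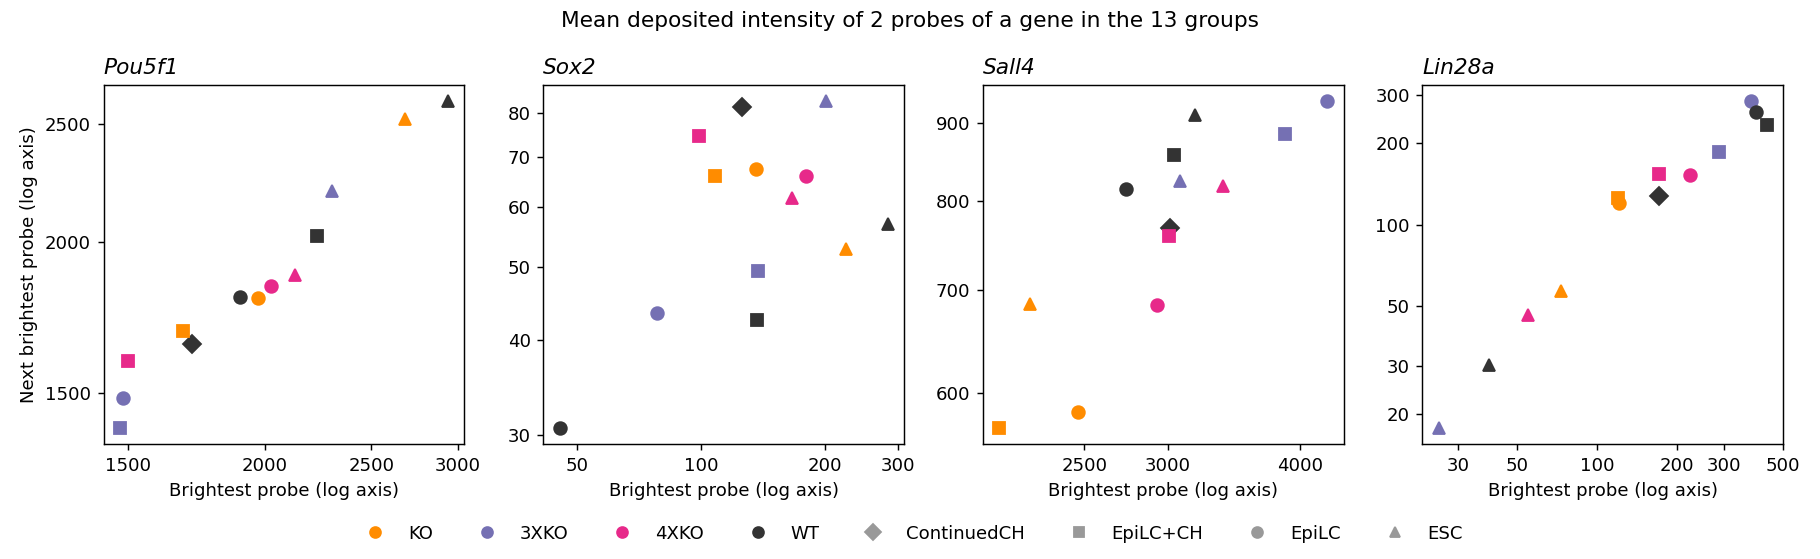
Mean deposited intensity of the brightest probe (horizontal) and the next brightest probe (vertical) of 4 genes in the 13 groups, both on log axes, with colour by line and shape by medium. The points run along a line for Pou5f1 and Lin28a and scatter for Sox2, where WT EpiLC is lowest on both axes.

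Among the mutant lines in EpiLC medium, Sox2 was higher and Lin28a and Utf1 were lower than WT wherever Tcf7l1 was missing. In KO EpiLC, Sox2 was higher than in WT EpiLC by 1.56 ± 0.28 (2.94-fold, limma adjusted p = 0.0001), and the second Sox2 probe was also called (1.12, adjusted p = 0.0452). In 4XKO EpiLC the Sox2 difference was 1.94 ± 0.28 (3.83-fold, limma adjusted p = 4.98e-06), with the second probe at 0.91 (adjusted p = 0.129). No array of either mutant overlapped WT on the brightest Sox2 probe. In 3XKO EpiLC the arrays (95.9, 76.0 and 62.6) also lay above WT, but the difference of 0.77 ± 0.28 was not called (limma adjusted p = 0.0592). Of the other settings 3 called it, the replicate block among them (adjusted p = 0.0291), as did the fit without 3XKO EpiLC array 3 (0.0474).

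Lin28a read 131.3, 111.8 and 118.2 in KO EpiLC and 186.5, 251.2 and 233.2 in 4XKO EpiLC, against 309.1, 479.7 and 401.6 in WT EpiLC. It was lower by 3.25-fold in KO (log2 -1.70 ± 0.18, limma adjusted p = 1.03e-08) and by 1.76-fold in 4XKO (adjusted p = 0.000845), and its other probe was called in both lines. In 3XKO EpiLC it read 423.4, 359.5 and 355.6, inside the WT range (-0.05 ± 0.18). Utf1 read 752.1, 712.3 and 726.6 in KO EpiLC, 832.6, 944.0 and 843.7 in 4XKO EpiLC and 1248, 1037 and 1179 in 3XKO EpiLC, against 1363, 1184 and 1283 in WT EpiLC. Only the KO and 4XKO values lay apart from WT, by -0.80 ± 0.11 and -0.55 ± 0.11. Pou5f1 was called in no mutant EpiLC with all arrays, and in 3XKO without WT EpiLC array 1 (-0.49, adjusted p = 0.0282). Sall4 was called in 3XKO EpiLC alone (0.62 ± 0.12, limma adjusted p = 0.000195), but its second probe gave 0.17 there (adjusted p = 0.651) and was instead called lower in KO EpiLC (-0.50, adjusted p = 0.0441). Called members numbered 3 of 5 in KO, 1 of 5 in 3XKO and 3 of 5 in 4XKO, where 21.8%, 18.8% and 20.0% of all probes were called.

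In ESC medium, Lin28a was called in KO and 3XKO against WT, and Sall4 in KO. Lin28a was 1.9-fold higher in KO ESC than in WT ESC (0.93 ± 0.18, limma adjusted p = 0.000578) and 1.51-fold lower in 3XKO ESC (-0.60 ± 0.18, adjusted p = 0.0203), and the other Lin28a probe was called the same way in both (0.85 and -0.79). The call in 3XKO was lost without WT ESC array 2 or 3 or 3XKO ESC array 1 or 3 (adjusted p of 0.0514 to 0.127). Sall4 read 2222, 2123 and 2313 in KO ESC, against 2944, 2958 and 3641 in WT ESC, with no overlap (-0.51 ± 0.12, limma adjusted p = 0.00361), and its second probe gave -0.41 (adjusted p = 0.184). No member was called by limma in 4XKO ESC. Of the 5, 4 had an unadjusted p under 0.05 in 4XKO ESC, but the share of all probes under that threshold was not counted. Pou5f1 there (-0.48 ± 0.15, adjusted p = 0.0562) was called by its other probe (-0.48, adjusted p = 0.00348) and under 6 of the other settings, and without 4XKO ESC array 1 it was -0.65 (adjusted p = 0.0107). Utf1 in 4XKO ESC (0.24 ± 0.11) was called without WT ESC array 1 (0.36, adjusted p = 0.0496) or 4XKO ESC array 3 (0.38, adjusted p = 0.0332). Of all probes, 9.39% were called in KO ESC, 14.2% in 3XKO ESC and 5.65% in 4XKO ESC, against 2, 1 and 0 of the 5 members.

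With CHIR99021 in the EpiLC medium, Sox2 was called in none of the mutants against WT, and Lin28a was lower in all 3. Sox2 in 4XKO EpiLC+CH (-0.53 ± 0.28) was called only when its array 1 was left out (-0.84, adjusted p = 0.0461). In EpiLC+CH, Lin28a read 127.7, 130.3 and 102.2 in KO, 346.8, 246.4 and 269.3 in 3XKO and 207.3, 162.7 and 141.6 in 4XKO, against 445.4, 432.8 and 423.4 in WT. All 9 mutant arrays lay below the 3 WT arrays, by 1.86 ± 0.18 in KO, 0.61 ± 0.18 in 3XKO and 1.36 ± 0.18 in 4XKO on the log2 scale (limma adjusted p = 2.5e-09, 0.0141 and 7.84e-07). The other Lin28a probe was called only in KO (-0.88, adjusted p = 0.00619), and the 3XKO call was lost without 3XKO EpiLC+CH array 2 (0.0896) or 3 (0.0529). Pou5f1 was lower than WT in 3XKO (-0.60 ± 0.15) and 4XKO (-0.57 ± 0.15), called by both of its probes. Those calls were lost without 3XKO EpiLC+CH array 2 (-0.46, adjusted p = 0.0522) and without WT EpiLC+CH array 2 (-0.44 in 4XKO, adjusted p = 0.0644). In KO EpiLC+CH, Pou5f1 was not called as reported. It was called with the dimmest 33.3% of probes left out (-0.4, limma adjusted p = 0.0431) and with a trended and robust prior (0.027).

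Sall4 read 2045, 2069 and 2116 in KO EpiLC+CH, against 2865, 2898 and 3360 in WT EpiLC+CH, and was called lower by both bright probes (-0.55 ± 0.12 and, for the second, -0.61). In 3XKO EpiLC+CH it was higher by 0.35 ± 0.12 (limma adjusted p = 0.0367), which was lost in 4 of the 6 fits that left out 1 of these arrays (3XKO array 1 or 2, WT array 1 or 2; adjusted p of 0.0846 to 0.157) and was 0.01 by the second probe. Utf1 was lower in KO EpiLC+CH (-0.72 ± 0.11) and not called in the other lines. The members called were 3 of 5 in KO, 3 of 5 in 3XKO and 2 of 5 in 4XKO, where 21.1%, 17.6% and 20.6% of all probes were called. Over the 3 media the 45 tests of a mutant against WT gave 18 calls, but 10 when only the 2 compared groups set the spread.

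**Figure D4:**
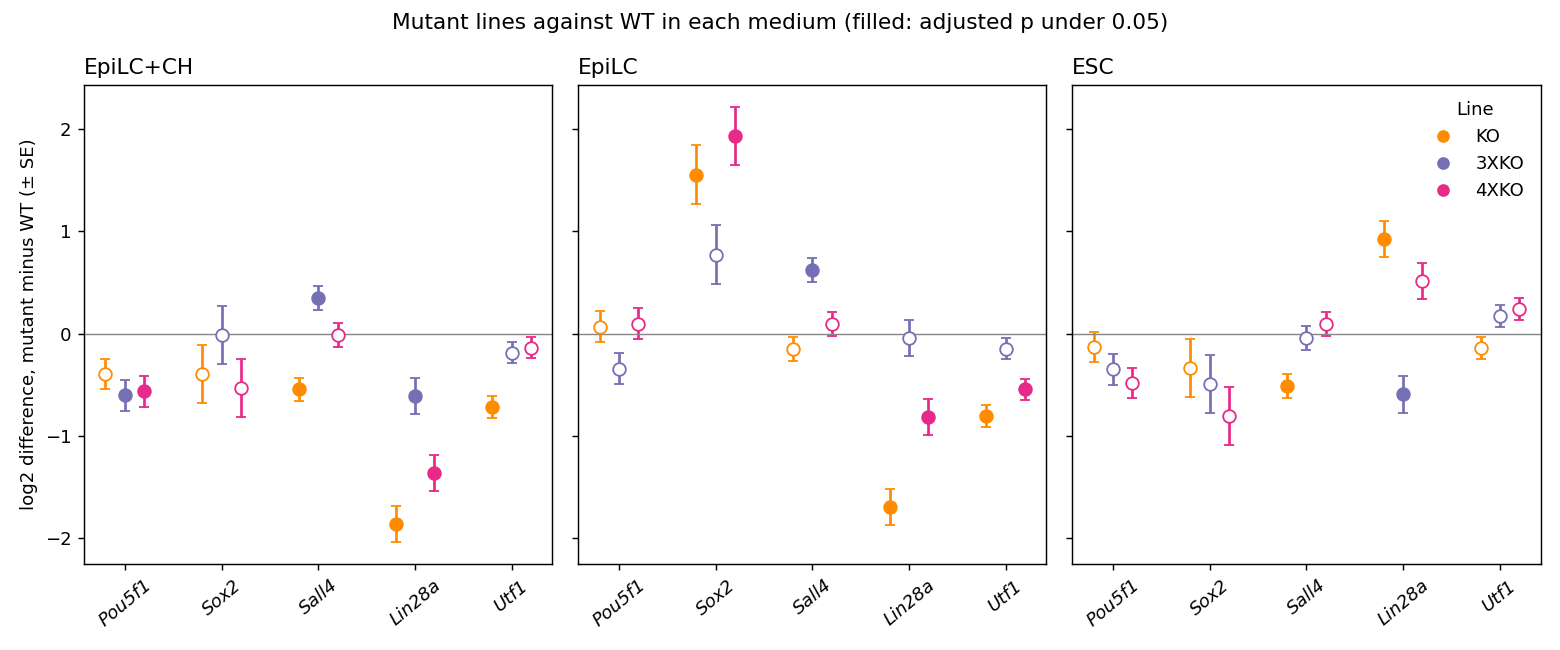
Difference of normalised log2 intensity between each mutant line and WT (± SE) for the brightest probe of each gene, in EpiLC+CH, EpiLC and ESC medium, with filled points for an adjusted p under 0.05. Sox2 is above 0 for all mutants in EpiLC and at or below 0 in the other media, and Lin28a in the KO line changes side between ESC (0.93) and EpiLC (-1.70).

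The 4XKO line lacks Tcf7l1 in addition to the factors missing from 3XKO. In EpiLC all 5 members were called between the lines, against 21.1% of all probes: Sox2 (1.16 ± 0.28) and Pou5f1 (0.44 ± 0.15) were higher in 4XKO, and Lin28a (-0.77 ± 0.18), Sall4 (-0.53 ± 0.12) and Utf1 (-0.40 ± 0.11) were lower. Pou5f1 read 1828, 2418 and 1834 in 4XKO EpiLC, against 1577, 1552 and 1322 in 3XKO EpiLC. Its arrays did not overlap, but the call (limma adjusted p = 0.034) was lost without 4XKO EpiLC array 2 (0.31, adjusted p = 0.232) or 3XKO EpiLC array 2 or 3 (0.0505 and 0.157). In EpiLC+CH, Sall4 (-0.37 ± 0.12) and Lin28a (-0.76 ± 0.18) were called, against 19.8% of all probes, and the Sall4 call was lost without 4XKO EpiLC+CH array 1 or 3XKO EpiLC+CH array 1 or 2 (adjusted p of 0.0623 to 0.132). In ESC only Lin28a was called (1.11 ± 0.18, limma adjusted p = 3.92e-05), against 12.7% of all probes, with 50.6, 60.6 and 53.6 in 4XKO, against 23.7, 27.3 and 25.2 in 3XKO. Of these 8 calls in 15 tests, 2 held with the spread of the 2 compared groups only, and the second Sox2 and Sall4 probes were not called in EpiLC (0.43 and -0.44). In EpiLC+CH neither the other Lin28a probe (-0.27, adjusted p = 0.523) nor the second Sall4 probe (-0.20, adjusted p = 0.547) was called.

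In WT EpiLC, CHIR99021 for 24 hours was followed by higher Sox2 and lower Utf1. Sox2 read 134.3, 150.9 and 124.4 in WT EpiLC+CH, against 40.1, 53.2 and 42.8 in WT EpiLC, a difference of 1.60 ± 0.28 (3.02-fold, limma adjusted p = 0.000312). The groups did not overlap, yet all 3 treated arrays stayed below the WT ESC arrays (255.1 to 319.9). The second Sox2 probe gave 0.39, which was not called (adjusted p = 0.768). Utf1 read 850.0, 1000 and 928.0 in WT EpiLC+CH, against 1363, 1184 and 1283 in WT EpiLC (-0.46 ± 0.11, limma adjusted p = 0.00485). In 3XKO, Utf1 fell too (762.2, 791.8 and 887.9 in EpiLC+CH, against 1248, 1037 and 1179 in EpiLC, -0.50 ± 0.11, limma adjusted p = 0.0022). With the spread of these groups alone, neither Utf1 call held (adjusted p = 0.0846 in WT and 0.111 in 3XKO).

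No member was called by limma after CHIR99021 in KO or 4XKO EpiLC. An unadjusted p under 0.05 was found for 2 and 3 of the 5, but the share of all probes under that threshold was not counted. Sox2 read 143.6, 78.3 and 73.9 in 4XKO EpiLC+CH, against 147.2, 256.8 and 135.5 in 4XKO EpiLC, a difference of -0.88 ± 0.28 (limma adjusted p = 0.114). Without 4XKO EpiLC+CH array 1, the highest of its group, it was -1.18 (adjusted p = 0.0365). In KO EpiLC+CH, Sox2 read 131.6, 125.5 and 67.6, against 179.7, 106.1 and 122.2 in KO EpiLC, with overlap (-0.35 ± 0.28). In 3XKO the difference was 0.81 ± 0.28 (limma adjusted p = 0.112), with no overlap between 147.7, 103.6 and 160.3 in EpiLC+CH and 95.9, 76.0 and 62.6 in EpiLC. The share of all probes called was 6.51% in WT, 0.934% in KO, 5.85% in 3XKO and 2.16% in 4XKO, against 2, 0, 1 and 0 of the 5 members.

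Tested directly, the Sox2 response to CHIR99021 differed from WT by -1.95 ± 0.40 in KO (limma adjusted p = 0.00458) and by -2.47 ± 0.40 in 4XKO (adjusted p = 0.000197). The difference in 3XKO was -0.79 ± 0.40 and was not called (adjusted p = 0.725). These were the only 2 calls among 15 tests over the members, where 2.04%, 4.34% and 0.693% of all probes were called in KO, 4XKO and 3XKO. With the spread of these groups alone the KO difference had an adjusted p of 0.0544. By the second Sox2 probe the differences were -0.41 in KO and -0.04 in 4XKO (adjusted p of 0.9 and 1). The Pou5f1 difference in 4XKO was -0.66 ± 0.21 (limma adjusted p = 0.076), and -0.79 without WT EpiLC array 2 (adjusted p = 0.0331). It was also called with a trended and robust prior (-0.66, adjusted p = 0.03).

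WT cells kept in CHIR99021 together with Fgf2 (ContinuedCH) had more Sox2 and less Lin28a and Utf1 than untreated WT EpiLC. Sox2 read 123.0, 157.8 and 95.0 in ContinuedCH, against 40.1, 53.2 and 42.8 in EpiLC (1.45 ± 0.28, limma adjusted p = 0.00029), and its second probe was called too (1.36, adjusted p = 0.0144). Lin28a read 178.7, 190.3 and 141.0 in ContinuedCH and Utf1 read 590.6, 618.5 and 588.7. Both genes lay below every untreated WT EpiLC array, by 1.21 ± 0.18 and 1.09 ± 0.11 on the log2 scale. Against 24 hours of CHIR99021 in EpiLC+CH, Lin28a was lower by 1.36 ± 0.18 and Utf1 by 0.62 ± 0.11, while Sox2 did not pass the test (-0.15 ± 0.28). Pou5f1 and Sall4 were called in neither comparison. With a trended and robust prior, Pou5f1 was called against EpiLC+CH (-0.37, limma adjusted p = 0.0469). The members called were 3 of 5 against EpiLC and 2 of 5 against EpiLC+CH, where 19.2% and 16.8% of all probes were called.

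Against WT ESC, which had CHIR99021 with PD0325901 and LIF in place of Fgf2, ContinuedCH had less Pou5f1 (-0.78 ± 0.15) and Sox2 (-1.20 ± 0.28) and more Lin28a (2.14 ± 0.18) and Utf1 (1.22 ± 0.11), all called by limma (largest adjusted p = 0.0019). That was 4 of 5 members, where 22.0% of all probes were called. Pou5f1 read 1865, 1771 and 1512 in ContinuedCH, against 3085, 2971 and 2760 in WT ESC, with no overlap. The second Sox2 probe went the other way in this comparison (0.50, adjusted p = 0.478).

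In the second set of WT arrays, Utf1 was the member that differed most after CHIR99021. It read 580.6, 770.8 and 692.7 in LIF+PD+24hrCH, against 1705, 1476 and 1101 in LIF+PD, with 1298 on the LIF+CHIR array and 1496 on the PD+CHIR array. The groups of 3 did not overlap, but the difference of -1.05 ± 0.21 was not called in this small set (limma adjusted p = 0.218). A fit over all 47 arrays gave -0.95 and called it (adjusted p = 3.96e-06). The differences of the other members were between -0.12 and -0.01, none called: in LIF+PD+24hrCH, Pou5f1 averaged 5106 ± 189, Sox2 101.8 ± 23.1, Sall4 4369 ± 260 and Lin28a 79.0 ± 21.1, against 5139 ± 376, 106.9 ± 34.2, 4739 ± 377 and 80.3 ± 1.67 of the same genes in LIF+PD (SD, n = 3 each). Of all probes, 0.342% were called, and 0 of the 5 members. Of these, 1 (Utf1) had an unadjusted p under 0.05, a threshold at which all probes were not counted. On the single LIF+CHIR array Pou5f1 read 3826, below all 7 other arrays of the set.

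**Figure D5:**
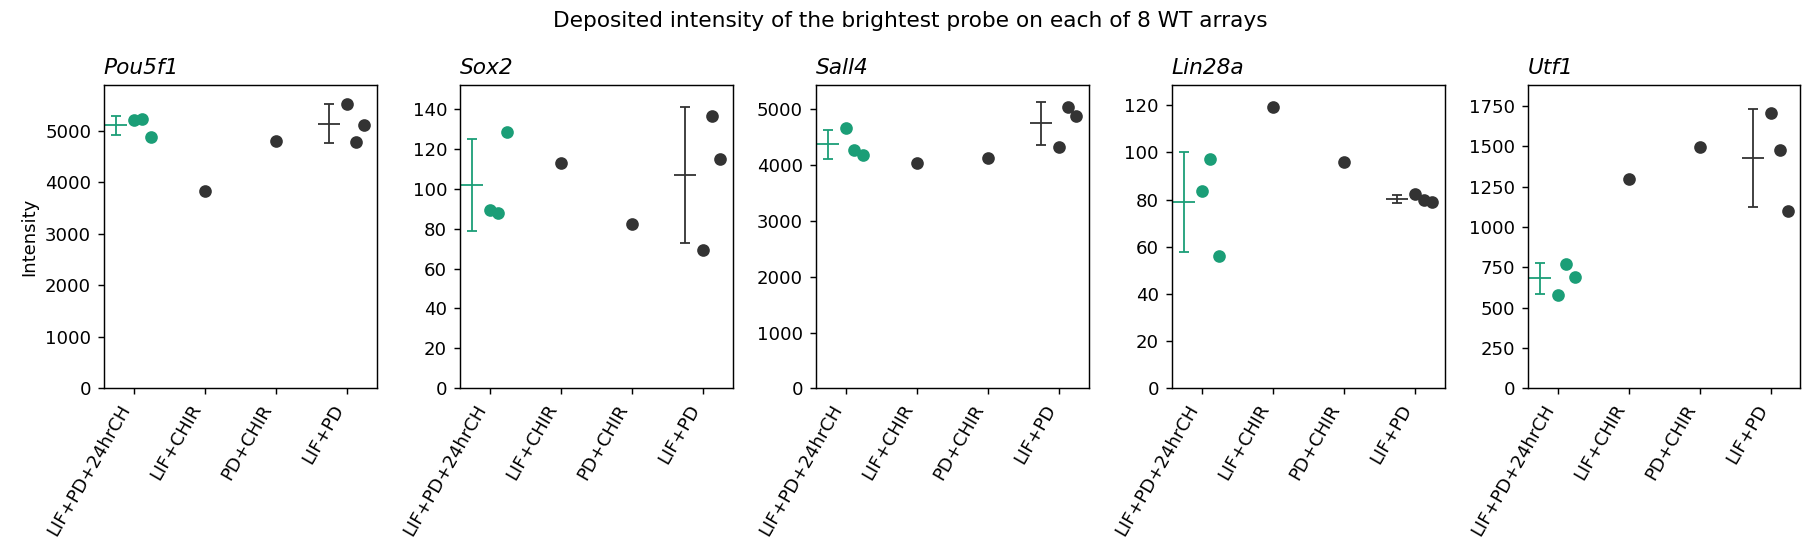
Deposited intensity of the brightest probe of each gene on the 8 WT arrays of the second set, 1 point per array, with the mean and SD to the left of the groups with 3 arrays. For Utf1 the 3 LIF+PD+24hrCH arrays (580.6 to 770.8) lie below all 5 others.

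Cell state and other cell types were read from marker lists beside these results. In a summed list, values not above the background limit count as 0 and bright probes weigh most. A sum therefore serves only to compare groups for the same list and does not measure an amount of cells. In WT EpiLC against WT ESC the 4 formative or primed markers (Fgf5, Pou3f1, Otx2, Dnmt3b) were all called higher and the 6 naive markers (Klf2, Klf4, Nr5a2, Esrrb, Tbx3, Tcl1) all lower. Over all probes 30.0% were called in this comparison. The naive markers were all called higher in KO, 3XKO and 4XKO EpiLC than in WT EpiLC and in WT EpiLC+CH and ContinuedCH than in WT EpiLC. Their summed intensity per array was 10318 to 10939 in KO EpiLC, 2786 to 3082 in 3XKO EpiLC and 10470 to 10723 in 4XKO EpiLC, against 1613 to 1790 in WT EpiLC. It was 3713 to 4114 in WT EpiLC+CH and 17702.5 to 19666 in WT ESC. The share of all probes called against WT EpiLC was 21.8% in KO, 18.8% in 3XKO and 20.0% in 4XKO EpiLC. That share was 6.51% in WT EpiLC+CH and 19.2% in ContinuedCH. The 4 formative markers were all called lower than in WT EpiLC in KO EpiLC (median -3.88), 4XKO EpiLC (-2.72) and ContinuedCH (-3.57), and none was called in 3XKO EpiLC (-0.21). They summed to 3436 to 3591 in KO EpiLC, 17807 to 20007 in 3XKO EpiLC, 5237 to 5691 in 4XKO EpiLC and 5141 to 5363 in ContinuedCH, against 19217 to 21360 in WT EpiLC. The part of this shift of state in the members' values was not tested. The fibroblast list summed to 2970 to 3129 in WT EpiLC, against 445.0 to 516.8 in WT ESC, with 3 of 9 genes called higher (Acta2, Dcn, Thy1) and 1 lower (Vim), while Col1a1, Col1a2, Col3a1, Postn and Lum were below background in both. Acta2, Dcn and Thy1 were below background in WT ESC, so the sizes of their rises are not measured ratios. In the mutants the fibroblast list summed to 583.9 to 597.5 in KO EpiLC, 1832 to 2045 in 3XKO EpiLC and 628.8 to 800.0 in 4XKO EpiLC. The extraembryonic endoderm list summed to 1359 to 1393 in WT EpiLC, against 3074 to 3312 in WT ESC, with Gata4, Foxa2, Pdgfra and Afp below background in both. Of its 11 genes 2 were called higher and 3 lower. The list summed to 1666 to 1902 in KO EpiLC, 1748 to 1863.5 in 3XKO EpiLC, 1352 to 1439 in 4XKO EpiLC and 769.1 to 828.9 in WT EpiLC+CH. Against WT EpiLC, 3 were called higher and 2 lower in KO, 5 and 0 in 3XKO, 2 and 2 in 4XKO, and 0 and 3 in WT EpiLC+CH. Of 6 neural markers 1 (Nes) was called higher in WT EpiLC than in WT ESC, with Sox1 and Pax6 below background. In the same comparison, of 8 trophoblast and 6 mesendoderm markers 1 and 2 were called lower. The trophoblast list summed to 1343 to 1374.5 in KO EpiLC, 1825 to 2091 in 3XKO EpiLC, 1140 to 1173 in 4XKO EpiLC and 1156 to 1380.2 in WT EpiLC+CH, against 549.7 to 626.3 in WT EpiLC, with Elf5 and Hand1 below background in all of these groups. The mesendoderm list summed to 86.5 to 103.3 in KO EpiLC, 0.0 to 15.3 in 3XKO EpiLC, 59.6 to 68.6 in 4XKO EpiLC and 139.4 to 148.9 in WT EpiLC+CH, against 0.0 to 16.0 in WT EpiLC. The part of these lists was not tested either.

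In WT EpiLC against WT ESC, 3 of 13 measured transcription factor partners (Nanog, Esrrb, Klf factors and others) were called higher and 6 lower, where 30.0% of all probes were called. The list's median of -1.49 on the log2 scale was the value of Prdm14, which was below background in both groups and not called. The largest among them were Klf4 (-4.60 ± 0.23), Zfp42 (-3.40 ± 0.09), Klf5 (-3.08 ± 0.09) and Esrrb (-2.90 ± 0.06), all activators or markers of the naive state. After CHIR99021 in WT EpiLC 5 partners were called higher and 3 lower, where 6.51% of all probes were called. Among them were Klf4 (1.40 ± 0.23), Zfp42 (1.29 ± 0.09), Nanog (1.26 ± 0.18) and Klf5 (0.96 ± 0.09). In KO EpiLC against WT EpiLC 7 were called higher and 2 lower, with Zfp42 (2.88 ± 0.09), Klf4 (2.56 ± 0.23), Esrrb (2.10 ± 0.06) and Nanog (1.71 ± 0.18) at the top. In 4XKO EpiLC 6 were higher and 1 lower, and in 3XKO EpiLC 5 were higher and 0 lower. The share of all probes called against WT EpiLC was 21.8% in KO, 20.0% in 4XKO and 18.8% in 3XKO.

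Of 7 measured genes with a known Oct4-Sox2 element, 2 were called higher and 3 lower in WT EpiLC against WT ESC (median -0.45). Lefty1, a Nodal inhibitor, was higher (3.08 ± 0.16) and Nanog (-1.97 ± 0.18), Fbxo15 (-1.63 ± 0.07) and Tdgf1, a Nodal co-receptor (-1.19 ± 0.30), were lower. After CHIR99021 in WT EpiLC 3 were higher and 2 lower, with Lefty1 (1.50 ± 0.16) and Nanog up and the growth factor Fgf4 (-1.07 ± 0.24) and Zscan10 (-0.52 ± 0.11) down. In KO EpiLC against WT EpiLC 3 were higher, Nanog, Fbxo15 (1.25 ± 0.07) and Lefty1 (0.99 ± 0.16), and 1 lower, Zscan10 (-1.10 ± 0.11). Calls in both directions were made in each of these comparisons, where 30.0%, 6.51% and 21.8% of all probes were called.

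Of 10 measured genes around Lin28 and let-7, 3 were called higher and 3 lower in WT EpiLC against WT ESC (median 0.04), against 30.0% of all probes. Ccnd1, a cyclin, was higher (2.26 ± 0.09) as was Dicer1, which cuts microRNA precursors (0.81 ± 0.10), while Arid3a (-0.69 ± 0.25) and Dis3l2, which degrades let-7 precursors (-0.64 ± 0.10), were lower. In KO EpiLC, where Lin28a was lower than WT, 1 was higher, Dis3l2 (0.45 ± 0.10), and 3 were lower: the RNA-binding genes Igf2bp1 (-0.49 ± 0.10) and Igf2bp3 (-0.34 ± 0.07), and Ccnd1 (-0.34 ± 0.09). Over all probes 21.8% were called there. Of 10 measured NuRD subunits, 3 were higher and 0 lower in WT EpiLC against WT ESC: Mbd3 (1.30 ± 0.14), Mta1 (0.64 ± 0.20) and Mta3 (0.59 ± 0.06). That is the share called over all probes (30.0%), with a median of 0.06, and nothing about the subunits is read from it. Among 11 measured SOX, POU and SALL relatives, 5 were higher and 2 lower in WT EpiLC, against 30.0% of all probes. Pou3f1 (9.0 ± 0.46), Sall2 (4.20 ± 0.22) and Sox12 (2.79 ± 0.18) were higher and Sall3 (-3.06 ± 0.52) was lower, while Sall4 was not called. Pou3f1 was below background in WT ESC, so the size of its difference rests on values near background and is not a measured ratio. In WT EpiLC+CH against WT EpiLC, Sall2 (-2.07 ± 0.22) and Sall1 (-0.59 ± 0.09) were lower and Sox15 (0.57 ± 0.15) was higher, where 6.51% of all probes were called.

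Among the members themselves, the 13 group means of log2 intensity gave a correlation of 0.92 between Lin28a and Utf1 and of 0.70 between Pou5f1 and Sox2. Sox2 ran against Utf1 (-0.80) and Lin28a (-0.71), as did Pou5f1 (-0.72 and -0.62), and Sall4 correlated with the other 4 between -0.33 and 0.24. The points share arrays and normalisation. Of 9229 genes above background in at least 1 group, those with the most similar group means were Foxp1 (0.988), Lmo4 (0.984) and Pi4k2b (0.983) for Utf1 and Cct3 (0.972), Acta2 (0.97) and Adk (0.969) for Lin28a. For Sox2 they were Rab12 (0.947), Slc25a36 (0.925) and Flvcr2 (0.921), for Pou5f1 Ggact (0.944), Tmem59 (0.934) and Rab42 (0.912), and for Sall4 Nek6 (0.932), Ppp4r3a (0.929) and Gse1 (0.929).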

How the data were processed

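Expression was measured on 47 one-colour Illumina arrays. The deposited intensity values were used. Per the submitters' processing notes, the tools were lumi and limma; their versions are not given in the sources used here. The values show what had been done: values below 0 come from background subtraction, and the sorted values were nearly identical within 39 arrays and within the other 8, as after quantile normalisation in 2 separate sets. Only values within a set were compared. Unprocessed signals, detection calls and slide positions were not analysed here, so no scan or slide batch was tested, and the number of arrays limits the precision.

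Values below 1 were raised to 1 and put on the log2 scale, and quantile normalisation was repeated within each set. limma 3.58.1 (R 4.3.3) fitted 1 mean per group to each set (lmFit, eBayes), which pools the residual spread over the groups. In each of 30 comparisons, p-values were adjusted by Benjamini-Hochberg over the 25697 probes, with a threshold of 0.05. The code was tested on simulated data. Probes of 1 gene were kept apart, and the brightest stands for the gene. Of the probes, 23978 carried 1 symbol and 1719 none, for 16593 genes. Promoters came from RefSeq (GRCm38.p6), which held none for Sall4.

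The members, the lists and the tests were chosen with earlier results of these data known. The genes named are all members, the 3 genes most like each, and from each list at most 4 called genes with the largest differences. Lists cover transcription factor partners, Oct4-Sox2 element targets, Lin28 and let-7, NuRD, SOX, POU and SALL relatives, and markers of cell state and of extraembryonic endoderm, trophoblast, neural, mesendoderm and fibroblast cells.

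Same-numbered arrays deviated together, with every pair's correlation over 0.1, in 3 of 24 pairs of groups: WT EpiLC+CH with WT EpiLC, KO ESC with WT ESC, and 4XKO EpiLC with WT EpiLC. The pairing comes from the data, not the labels. Alternatives were cyclic loess, no second normalisation, a floor at the background limit, the dimmest 33.3% of probes left out, a trended and robust prior, a replicate block, a spread estimated from only the groups compared, a joint fit of the 47 arrays, genes reduced to their brightest probe, the other probes, a mean of KO EpiLC arrays 2 and 3, and fits that dropped 1 array each. Figures were drawn with matplotlib 3.10.9.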

Additional observations from a re-analysis of the deposited data

Results flagged for a closer look

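The change from ESC to EpiLC medium, or the response to CHIR99021, differed between a mutant line and WT for 10 combinations of gene and line by limma's test of the difference itself (adjusted p under 0.05). For Sox2 the CHIR99021 response differed from that in WT by -1.95 in KO and by -2.47 in 4XKO. For the EpiLC transition, the Sox2 difference from WT was 1.89 in KO, 1.26 in 3XKO and 2.74 in 4XKO. Lin28a differed by -2.63 in KO and -1.33 in 4XKO, Utf1 by -0.66 in KO and -0.79 in 4XKO, and Sall4 by 0.66 in 3XKO. All are log2 differences of the brightest probe. The Sox2 and Sall4 differences were not called by the second probe of the gene, and those of Lin28a were. Utf1 has 1 named probe. The dimmest Sall4 probe was called for the same difference (3.03, adjusted p = 0.0398). It read below the background limit of 13.6 in 3XKO ESC (2.0 to 7.4), WT EpiLC (4.1 to 11.2) and WT ESC (11.1 to 12.7), so nothing is read from that call. All these differences share the WT arrays, so they are not independent of each other.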

How the results depend on the processing

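Counts of calls over the members, by their brightest probes, held within 1.5 times under the settings counted except the following. With the spread from only the groups compared, calls for EpiLC+CH minus EpiLC were 1 (3 as reported), for mutants minus WT 10 (18), for 4XKO minus 3XKO 2 (8) and for the difference of the CHIR99021 response 1 (2). Fewer arrays set the spread there by construction. With all 47 arrays in 1 fit, Utf1 was called in LIF+PD, so that count was 1 in place of 0. With 1 array left out at a time, the counts ran from 13 to 15 for EpiLC minus ESC, 3 to 4 for EpiLC+CH minus EpiLC, 9 to 9 for ContinuedCH, 15 to 19 for mutants minus WT, 7 to 8 for 4XKO minus 3XKO, 2 to 3 and 7 to 9 for the differences of response and transition, and 0 to 0 in LIF+PD. No called value of a brightest probe changed sign. Counts by the other probes were not among these. Over the 5 other probes in 30 comparisons, 120 of 150 results kept their call or lack of one, 25 were no longer called, 3 were newly called and 2 changed sign. Of the 7 calls for 4XKO minus 3XKO in genes with another bright probe, 3 were called by it, and of the 2 for the difference of the CHIR99021 response 0 were. The second Sox2 probe turned the sign in 2 comparisons, for ContinuedCH minus ESC (0.50) and for the 3XKO transition difference (-0.09). The cause was not tested. Of 2510 single values, 60 differed in sign where neither was called. Signals near background limit the dimmest Sall4 probe, and 3 arrays a group limit all tests.

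Over all probes, counts of calls moved by over 1.5 times as follows. With the spread from only the groups compared, EpiLC+CH minus EpiLC gave 780 in WT (1674 as reported), 26 in KO (240), 551 in 3XKO (1504) and 44 in 4XKO (555), ContinuedCH minus EpiLC+CH 2524 (4306), KO ESC minus WT ESC 1224 (2412), 3XKO ESC 2107 (3644), 4XKO ESC 464 (1453), 3XKO EpiLC+CH minus WT 2759 (4525), 4XKO ESC minus 3XKO ESC 1734 (3265) and the 3XKO difference of response 62 (178). All 47 arrays in 1 fit gave 132 for CHIR99021 in KO, 283 in 4XKO and 1182 in LIF+PD (88 as reported). A floor at the background limit gave 839 (523) and 422 (178) for the KO and 3XKO differences of response and 8 in LIF+PD. Averaging KO EpiLC arrays 2 and 3 gave 101 for CHIR99021 in KO. Fits without 1 array gave 113 to 237 there and 182 to 522 in 4XKO, where leaving out array 2 or 3 of either group took the count past that limit.

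The replicate block changed 2 calls, both to called: Sox2 in 3XKO EpiLC minus WT EpiLC (adjusted p = 0.0291) and in KO EpiLC minus KO ESC (0.0312), and neither pair of groups was among the 3 whose numbers deviated together. Same-numbered arrays correlated between -0.43 and 0.65 over all pairs. In LIF+PD the block left 0 calls over all probes (88 as reported).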
